A study of Mus musculus with 162 samples.

Results

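The response of sensory ganglia to skin inflammation was examined in mice lacking the TSLP receptor, at day 12 of MC903 treatment of the cheek. The libraries were those labelled trigeminal ganglion, TSLPR.KO, no injection and Day 12, which are 8 of the 162 libraries of the series. All 8 came from adult male mice on the C57BL/6 background that carry the TSLPR knockout, a germline deletion in Crlf2, the gene of the TSLP receptor chain, so that every cell of skin and ganglion carries it. In 4 of them the cheek had received 20 µL of 0.2 mM MC903 (calcipotriol, a vitamin D analogue dissolved in ethanol) once daily, and in the other 4 ethanol alone. MC903 on skin is a model of atopic dermatitis. The question addressed here is which transcripts of the ganglion differed between MC903 and ethanol in mice labelled as TSLP receptor knockout. The labels number the libraries 1 to 4 in each group but do not say whether each came from a separate animal, so the p-values measure the spread between these libraries, which may be technical in part.

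The trigeminal ganglion holds the cell bodies of the sensory neurons that innervate the cheek, wrapped by satellite glia, and the axons of these neurons run among Schwann cells. A subset of these neurons is specialised for itch and carries receptors for cytokines such as IL-31, which signal through JAK kinases and STAT transcription factors. Sensory neurons also make neuropeptides, among them CGRP, substance P and PACAP, which they release both in the spinal cord or brainstem and in the skin. TSLP is an epithelial cytokine made by keratinocytes in atopic dermatitis. It acts on immune cells, and sensory neurons have also been described as its targets.

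Libraries held 32486782 to 47526937 counts on genes. Levels are given as normalized cpm, the counts of a gene scaled to counts per 1000000 of the library after TMM normalization, and as mean ± SD over 4 libraries (n = 4). All 8 libraries had the genes of ganglion tissue. Snap25, a synaptic protein of neurons, lay at 997 to 1427 cpm before TMM scaling, and Scn10a, the sodium channel Nav1.8 of nociceptors, at 781 to 973 cpm. The keratinocyte gene Krt14 was at 0.215 to 1.16 cpm and the muscle gene Acta1 at 3.85 to 6.94 cpm. The pituitary gene Gh varied from 11.8 to 288 cpm with MC903 and from 26 to 197 cpm with ethanol. MC903 library 1 stood apart in that 6.15% of its reads fell on no gene, against 10.9% to 11.8% in the other 7. Without it 51 of the 79 genes called in the main fit kept their call, which is not marked for every gene below. Named genes that lost their call without it include Lyz2, Serpina3f, Hspa1a, Hspa1b, Cebpd, Cartpt and Gal.

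The wild-type libraries labelled trigeminal ganglion at day 12 could not serve as the reference. In 6 of those 9, which include all 5 of MC903 and 1 of ethanol, Snap25 was at 0.368 cpm or less and Krt14 at 1372 to 15628 cpm, and a further ethanol library held Snap25 at 675 cpm together with Krt14 at 461 cpm. Only ethanol libraries 3 and 4 had the marker genes of ganglion alone. Of the 9 libraries labelled wild-type day 12 skin, 6 held Snap25 at 1162 to 1275 cpm. The labels of the wild-type day 12 libraries therefore go against their contents, no sample was moved from its label, and MC903 was not compared with ethanol in wild-type ganglia of day 12. Day 8 libraries, whose Snap25 lay at 992 to 1545 cpm and Krt14 at 0 to 41.6 cpm, are used instead, so that genotype and day cannot be told apart in that comparison.

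**Figure D1:**
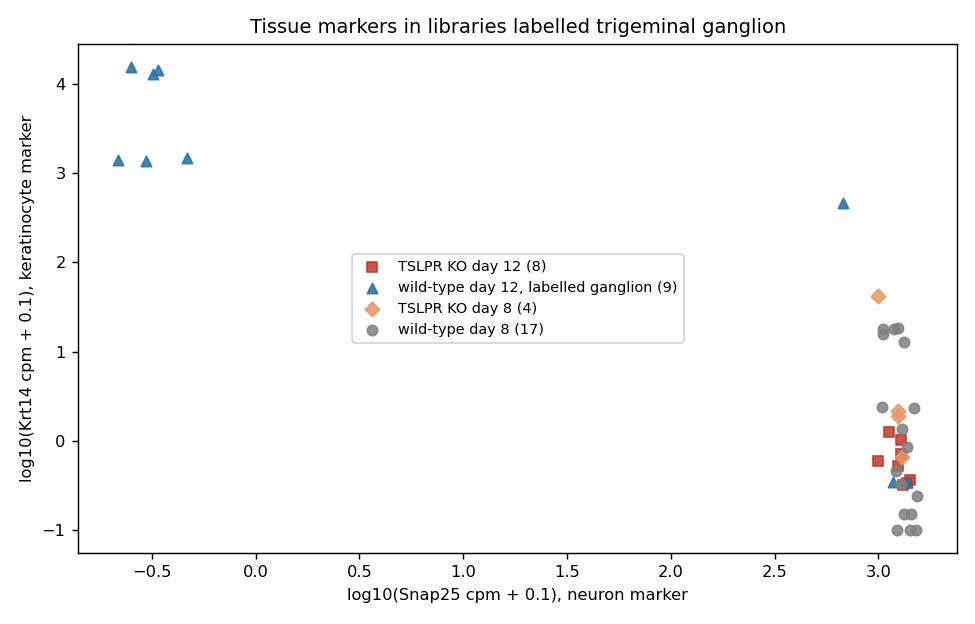
Level of the neuron gene Snap25 (horizontal) against that of the keratinocyte gene Krt14 (vertical) in each library labelled trigeminal ganglion, both as log10 of the cpm + 0.1. The 8 TSLPR KO day 12 libraries (squares) lie at high Snap25 (997 to 1427 cpm) and low Krt14 (0.215 to 1.16 cpm), whereas 6 of the 9 wild-type day 12 libraries (triangles) lie at Snap25 of 0.368 cpm or less.

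The deleted gene was low but not absent in the knockout. Crlf2 (ENSMUSG00000033467, chr5:109554709-109558993, minus strand, GRCm38) had 1.61, 1.90, 1.31 and 2.0 normalized cpm in MC903 libraries 1 to 4 and 1.80, 0.901, 1.42 and 1.29 in ethanol libraries 1 to 4, from 38 to 81 counts per library. The groups overlapped, and the difference did not pass the test (log2 fold change 0.33 ± 0.23 SE, adjusted p = 0.809). In the wild-type day 12 ethanol libraries 3 and 4, which have ganglion markers, Crlf2 was at 6.09 and 6.60 cpm. TSLPR KO libraries of day 8 had 0 to 7 counts of Crlf2 (0 to 0.228 cpm), and for the library with 0 counts the limit that 3 counts allow is 0.0968 cpm. The day 12 level was thus between that of the day 8 knockout and that of wild-type. The counts cover the whole gene, so a part left by the deletion cannot be told from intact transcript. The day 8 knockout libraries carry the same genotype label, and why Crlf2 was higher at day 12 was not tested. One wild-type day 8 ethanol library (replicate 2 of the second uninjected series) held 4 counts of Crlf2 (0.117 cpm), which is a knockout level, and counts without it are given beside the wild-type results.

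Between ethanol-treated knockout and wild-type libraries labelled ganglion at day 12, Crlf2 was 4.97-fold lower in the knockout (log2 fold change -2.31), which did not pass the threshold of 0.1 (adjusted p = 0.111). Without the 2 wild-type libraries that hold skin genes, a fit chosen after seeing the data, Crlf2 was 4.61-fold lower (log2 fold change -2.21, adjusted p = 0.00192). In the fit with all libraries, 2 predicted genes of chromosome 14 passed of 26723 (0.00748%, both lower), with 4659 at an unadjusted p under 0.05. DESeq2 called 2942 genes there. These counts contrast ganglion with skin in part, because of those 2 libraries. Without the 2 libraries, 57 of 25015 genes passed, 27 higher and 30 lower (0.228%). Library series and genotype go together at day 12 and cannot be told apart.

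In the knockout, MC903 was followed by higher transcript levels of neuropeptides and secreted neuronal proteins (Vgf, Bdnf, Nptx2, Calca), of the IL-31 and oncostatin M receptors (Il31ra, Osmr) with Socs3, and of Serpina3 protease inhibitors. Of 25969 genes tested, 79 passed an adjusted p of 0.1 by edgeR's quasi-likelihood test with Benjamini-Hochberg adjustment (0.304%), of which 75 were higher with MC903 (0.289%) and 4 lower (0.0154%), and 1874 genes had an unadjusted p under 0.05. The 75 higher genes had a median log2 fold change of 0.76 and folds from 1.29 to 12.4, and 25 of them were more than 2-fold higher. Over all 25969 genes tested the median log2 fold change was 0.0019, and 13083 of them were above 0. For all 75 the 4 MC903 libraries lay above the 4 ethanol libraries, and for the 4 lower genes below them, which was so for 3% and 2.36% of all genes tested. Same-numbered MC903 and ethanol libraries deviated together, and when the number entered the fit as a block 356 genes were called (1.37%), all 79 among them, with 264 higher (1.02%) and 92 lower (0.354%). The number called depended on single libraries: it was 31 without ethanol library 3, 38 without ethanol library 4, 42 without MC903 library 3, 50 without MC903 library 2, 52 without ethanol library 2 and 57 without MC903 library 1. All 79 genes kept their direction in these fits, which groups without overlap fix in advance. Of the 79, 28 kept their call in all 8 fits that left out 1 library. DESeq2's Wald test called 260 genes, all 79 among them.

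**Figure D2:**
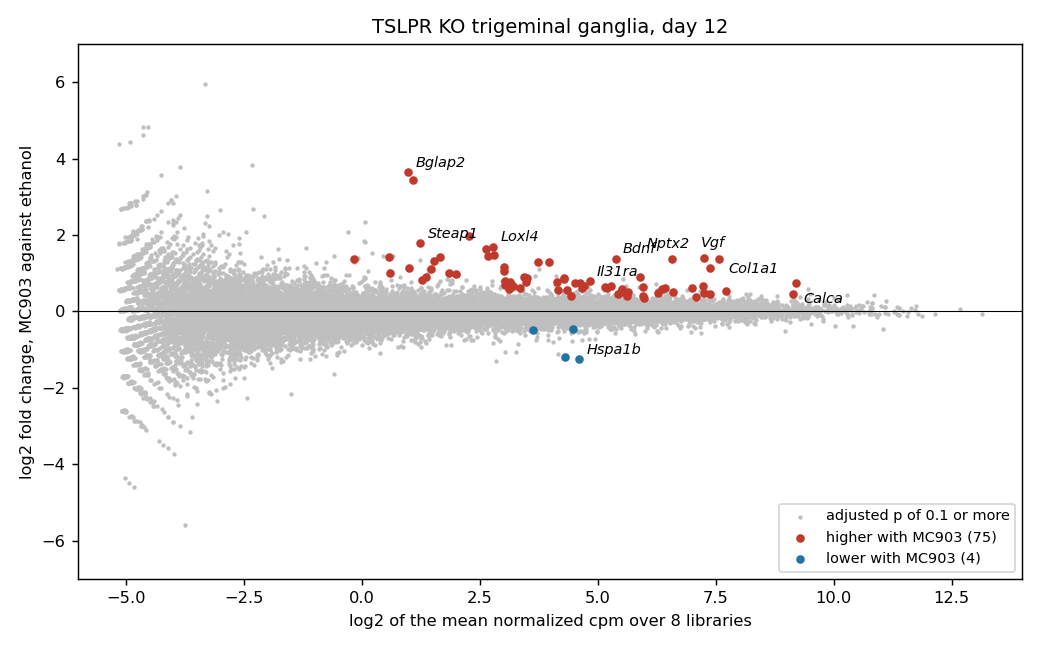
Log2 fold change of MC903 against ethanol (vertical) against the log2 of the mean normalized cpm over the 8 TSLPR KO day 12 libraries (horizontal), 1 point per gene tested (25969). Genes past an adjusted p of 0.1 are coloured, 75 higher and 4 lower, and the called genes above 0 extend over the whole range of levels of well measured genes.

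The 28 genes called in every fit that left out 1 library included Loxl4, Nptx2, Alkal2, Tmem173, Il31ra, Serpina3i, Serpina3g, Vgf, Avpr1a, Bdnf, Serpina3n, Socs3, Timeless and Osmr, which are among the 15 with the smallest p. Called genes named below that belong neither to these 15 nor to a gene list (Bcl3, Sbno2, Cebpd, Steap1, Adamts8, Lox, Timp1, Tyrp1, S1pr3, F2rl2, Bglap, Bglap2, Serpina3e-ps, Serpina3f, Serpina3h, Rab27a, Nt5e, Lpcat3 and Mrgprx3-ps) were chosen after their values were seen. The group of genes that the study named for this tissue had 9 of 16 tested members higher and none lower (median log2 fold change 0.62). Those genes were picked on libraries of the same series, so that this count is not independent evidence.

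Secreted proteins and peptides of neurons held the most calls among the lists by function. Of 22 neuropeptide and granin genes tested, 7 rose and none fell (median log2 fold change 0.36), and with the replicate block 9 rose and 1 fell. Vgf, a nerve growth factor-inducible precursor of several neuropeptides, had 225, 236, 267 and 164 normalized cpm in MC903 libraries 1 to 4 and 104, 73.8, 81.6 and 77.8 in ethanol libraries. Every MC903 library was above every ethanol library, and the means of 223 ± 43.1 and 84.2 ± 13.4 cpm differed 2.65-fold (log2 fold change 1.41 ± 0.15 SE, adjusted p = 0.00199).

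Calca encodes CGRP, the calcitonin gene-related peptide of peptidergic nociceptors. It had 750, 840, 755 and 620 cpm with MC903 against 451, 467, 433 and 420 with ethanol, with no overlap between the groups (1.67-fold, log2 0.74 ± 0.10, adjusted p = 0.0101). Adcyap1, the precursor of PACAP, rose 1.54-fold from 49.3 ± 6.69 to 76.2 ± 2.89 cpm (adjusted p = 0.0174), and its call was lost without ethanol library 3 (adjusted p = 0.105). Tac1, the precursor of substance P, rose 1.36-fold from 141 ± 12.7 to 192 ± 11.7 cpm (adjusted p = 0.0671). Scg2 (secretogranin II) rose 1.44-fold, Cartpt 1.69-fold and Gal, the precursor of galanin, 1.62-fold, with adjusted p-values of 0.0539, 0.0696 and 0.0809. These 4 genes kept their call in 2 (Tac1, Scg2, Gal) or 1 (Cartpt) of the 8 fits without 1 library, and the highest adjusted p was 0.34, for Gal without ethanol library 4. Calcb, the second CGRP gene, was at 47.5 to 61.8 cpm with MC903 and 41.2 to 47.1 with ethanol and did not pass (adjusted p = 0.23), nor did Nmb (adjusted p = 0.367) or Nppb (adjusted p = 0.425).

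Nptx2 encodes a secreted pentraxin that clusters AMPA receptors at synapses, and Nptxr is its membrane-bound partner. Nptx2 had 163.1, 128.01, 139.7 and 121.5 cpm with MC903 and 64.6, 51.2, 47.6 and 50.7 with ethanol, so that the lowest MC903 library was still well above the highest ethanol library (2.58-fold, log2 1.37 ± 0.12, adjusted p = 0.000816). Nptxr rose 1.54-fold, from 100 ± 7.92 to 154 ± 12.8 cpm (adjusted p = 0.0101). Nptx1, the third member, was 1.37-fold higher without passing (adjusted p = 0.208) and passed with the block (adjusted p = 0.0083).

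Bdnf, the neurotrophin that nociceptors release onto their central targets, had 49.2, 72.6, 73.1 and 47.1 cpm with MC903 and 25.8, 24.1, 22 and 20.8 with ethanol. The MC903 libraries were spread more widely than the ethanol libraries but none overlapped them (2.61-fold, log2 1.38 ± 0.15, adjusted p = 0.00221). It was the only one of 16 neurotrophin and receptor genes to pass (median log2 fold change of the list 0.04), and 3 passed with the block, Ngfr among them. Ngfr, the p75 neurotrophin receptor, had 687 to 1046 cpm with MC903 and 464 to 628 with ethanol (adjusted p = 0.227, and 0.0248 with the block). Alkal2, a ligand of the receptor tyrosine kinase ALK, rose 3.90-fold, from 1.98 ± 0.539 to 7.73 ± 0.948 cpm (log2 1.96 ± 0.18, adjusted p = 0.00159).

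**Figure D3:**
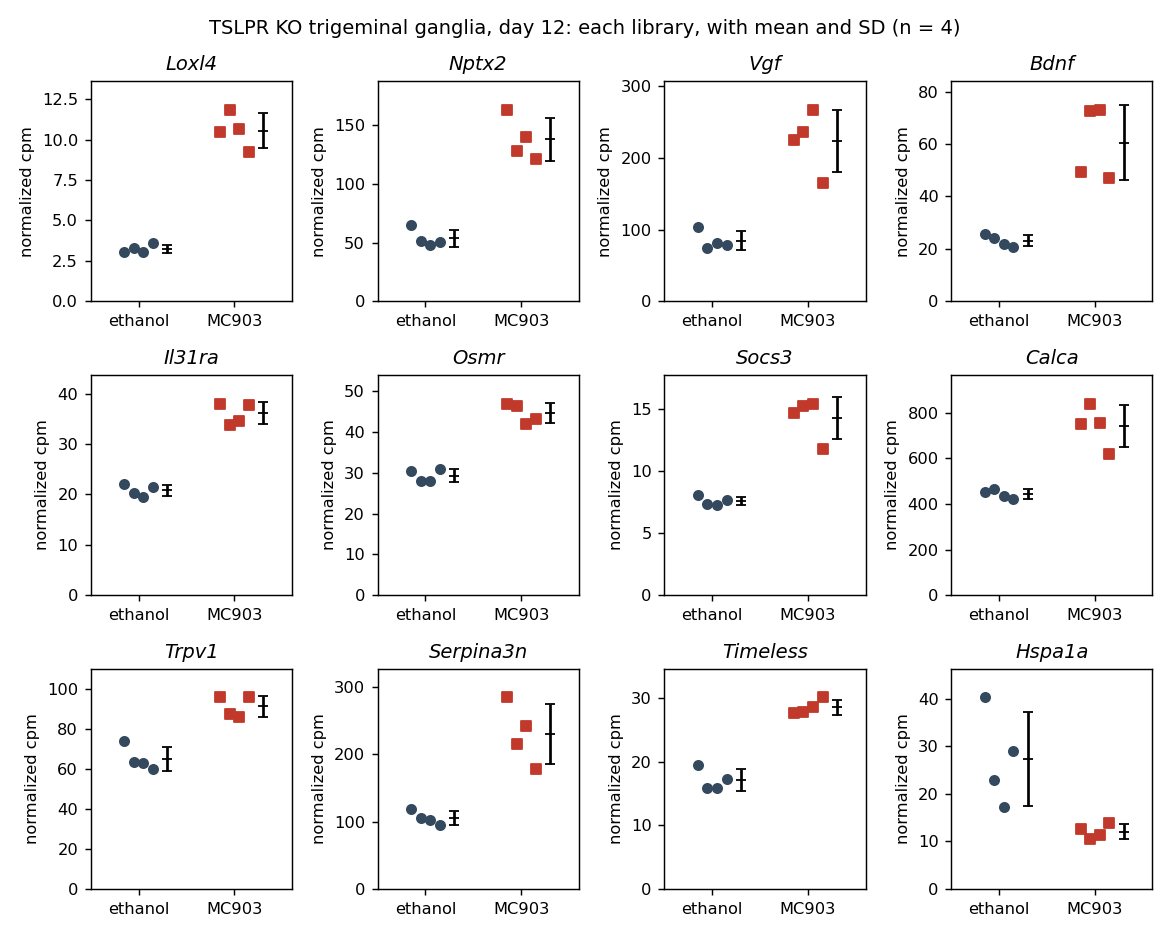
Normalized cpm of 12 genes in each TSLPR KO day 12 library, ethanol (circles) and MC903 (squares), with the mean and SD of 4 libraries beside each group. Each vertical axis starts at 0, and in every panel the groups do not overlap, with MC903 above ethanol in 11 genes and below it for Hspa1a.

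Transcription factors induced by neuronal activity moved only in part. Of 35 activity-induced genes tested, 5 rose and none fell (Vgf, Nptx2, Bdnf, Fosl2 and Junb), and the median of the list was 0.06. With the block 5 rose and 1 fell. Fosl2 and Junb encode subunits of the AP-1 transcription factor. Fosl2 rose 1.85-fold, from 13.8 ± 1.17 to 25.4 ± 4.0 cpm (adjusted p = 0.0101), and Junb 1.69-fold, from 8.29 ± 0.596 to 14.1 ± 2.16 cpm (adjusted p = 0.0286). The call of Junb was lost without ethanol library 3 (adjusted p = 0.132) or ethanol library 4 (0.149). Fos, the classical immediate early gene, was at 3.28 to 6.32 cpm with MC903 and 3.22 to 4.35 with ethanol, and the groups overlapped (adjusted p = 0.749). Egr1 (adjusted p = 0.873) and Jun (adjusted p = 0.933) did not pass either.

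The receptors of the IL-6 cytokine family that mark itch neurons rose together with a feedback gene of the pathway. Il31ra (ENSMUSG00000050377, chr13:112519898-112594360, minus strand) encodes the ligand-binding chain of the IL-31 receptor. It had 38.1, 33.8, 34.7 and 37.8 cpm with MC903 and 22, 20.3, 19.5 and 21.5 with ethanol, and the groups were far apart relative to their spread (1.73-fold, log2 0.79 ± 0.08, adjusted p = 0.00161). Osmr, the chain with which it pairs and which also binds oncostatin M, had 47, 46.4, 41.9 and 43.2 cpm with MC903 and 30.3, 28, 27.9 and 30.9 with ethanol (1.52-fold, log2 0.61 ± 0.07, adjusted p = 0.00596). Socs3, the inhibitor that STAT3 induces and that dampens these receptors, had 14.7, 15.2, 15.4 and 11.8 cpm against 8.03, 7.33, 7.29 and 7.69 (1.88-fold, log2 0.91 ± 0.11, adjusted p = 0.00503). For all 3 genes every MC903 library was above every ethanol library.

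In a list of 20 genes of IL-6 family signalling that was put together after values had been seen, 5 rose and none fell. Beside Il31ra, Osmr and Socs3 these were Bcl3, an atypical IκB protein (2.08-fold, adjusted p = 0.0101), and Sbno2, a transcriptional co-regulator (1.58-fold, adjusted p = 0.0174). Cebpd, a C/EBP transcription factor outside that list, rose 1.63-fold (adjusted p = 0.0657) and kept its call in 1 of the 8 fits without 1 library. Stat3 itself was at 394 ± 37.9 cpm with MC903 and 328 ± 12.6 with ethanol and did not pass (adjusted p = 0.505). Of 24 genes of TSLP and type 2 cytokine signalling, 3 rose, namely Il31ra, Osmr and Socs3, and none fell (median 0.21). Il4ra, the IL-4 receptor chain, was at 40 to 52 cpm with MC903 and 32.8 to 36.6 with ethanol (adjusted p = 0.3, and 0.0522 with the block). Il7r, the chain that pairs with the TSLP receptor, was at 0.238 to 0.564 cpm with MC903 and 0.200 to 0.522 cpm with ethanol.

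Because these genes moved together, the 250 bases before the RefSeq start of each called gene were searched for the core letters of a STAT site, TTCNNNGAA, of a cAMP response element, TGACGTCA, and of an AP-1 site, TGANTCA. Each reads the same on both strands, and none contains another. Promoter sequences of 56 of the 75 higher genes were found in RefSeq (GRCm38.p6). The STAT letters were present in 8 of these 56 (14.3%) and in 6.13% of the 14910 matched promoters of all genes tested. The cAMP response element was in 2 of 56 (3.57%, against 2.35%) and the AP-1 letters in 3 of 56 (5.36%, against 5.22%). The counts of promoters are small and the matches are a description of sequence only. Promoters with the STAT letters belonged to Bdnf, Il31ra, Sbno2, Scg2, Serpina3f, Serpina3g, Serpina3i and Socs3, of which the 3 Serpina3 genes are near copies in 1 cluster and not independent promoters, and those with the cAMP response element to Scg2 and Cartpt.

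Promoters of 5 of the called genes with the STAT letters, and that of Scg2 with the cAMP response element, are shown in the direction of transcription. Capitals mark the STAT letters in the 5 and the cAMP response element in Scg2. The STAT letters that Scg2 also holds are left in lower case. They lie at chr13:112580663-112580912 (Il31ra, minus strand), chr11:117969367-117969616 (Socs3, minus strand), chr2:109674450-109674699 (Bdnf, plus strand), chr12:104262872-104263121 (Serpina3i, plus strand), chr12:104235897-104236146 (Serpina3g, plus strand) and chr1:79440027-79440276 (Scg2, minus strand).
Il31ra: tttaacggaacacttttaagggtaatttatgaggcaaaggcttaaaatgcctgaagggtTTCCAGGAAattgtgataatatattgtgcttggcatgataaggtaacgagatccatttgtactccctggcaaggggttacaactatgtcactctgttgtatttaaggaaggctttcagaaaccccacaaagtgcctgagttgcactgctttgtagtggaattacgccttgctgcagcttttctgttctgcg
Socs3: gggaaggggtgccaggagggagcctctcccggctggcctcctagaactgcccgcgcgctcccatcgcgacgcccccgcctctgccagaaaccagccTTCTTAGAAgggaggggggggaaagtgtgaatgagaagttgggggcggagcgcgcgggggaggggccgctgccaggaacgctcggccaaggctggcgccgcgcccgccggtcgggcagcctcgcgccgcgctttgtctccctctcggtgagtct
Bdnf: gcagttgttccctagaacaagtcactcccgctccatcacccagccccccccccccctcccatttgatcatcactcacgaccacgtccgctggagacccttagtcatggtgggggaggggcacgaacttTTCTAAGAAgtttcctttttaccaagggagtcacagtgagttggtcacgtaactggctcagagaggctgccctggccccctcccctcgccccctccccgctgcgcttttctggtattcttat
Serpina3i: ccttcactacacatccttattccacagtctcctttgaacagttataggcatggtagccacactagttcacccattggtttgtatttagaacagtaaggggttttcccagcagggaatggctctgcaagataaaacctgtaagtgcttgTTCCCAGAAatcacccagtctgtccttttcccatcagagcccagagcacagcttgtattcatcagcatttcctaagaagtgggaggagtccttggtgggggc
Serpina3g: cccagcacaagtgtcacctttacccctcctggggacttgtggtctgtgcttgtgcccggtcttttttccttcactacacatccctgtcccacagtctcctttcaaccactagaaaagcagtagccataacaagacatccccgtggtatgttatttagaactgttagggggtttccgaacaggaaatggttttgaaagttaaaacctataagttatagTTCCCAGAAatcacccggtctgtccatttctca
Scg2: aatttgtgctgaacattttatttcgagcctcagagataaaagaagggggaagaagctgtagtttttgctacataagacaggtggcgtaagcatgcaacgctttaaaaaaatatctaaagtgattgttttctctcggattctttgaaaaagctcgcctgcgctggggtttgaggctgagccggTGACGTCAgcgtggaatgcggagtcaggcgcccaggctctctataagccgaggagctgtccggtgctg
The STAT letters start 191 bases before the RefSeq start in Il31ra, 154 in Socs3, 102 in Serpina3i and 33 in Serpina3g, and the cAMP response element 68 bases before it in Scg2. In the 2 Serpina3 promoters the match is the same run, TTCCCAGAA.

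Among 27 genes of itch neurons, 3 rose and none fell (median 0.29), and with the block 5 rose and 1 fell. Beside Il31ra and Osmr this was Trpv1, the ion channel opened by heat and capsaicin. Trpv1 had 95.7, 87.6, 85.9 and 95.8 cpm with MC903 and 73.9, 63.6, 62.8 and 60.2 with ethanol, with no overlap (1.40-fold, log2 0.49 ± 0.08, adjusted p = 0.0381). Its call was lost without ethanol library 2 (adjusted p = 0.136), 3 (0.176) or 4 (0.182).

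Trpa1, the irritant receptor that works downstream of several itch receptors, had 72.5, 102, 102 and 89 cpm with MC903 and 70.7, 59.5, 63.6 and 55.7 with ethanol. The MC903 libraries were all higher, library 1 only just, and the difference of 1.46-fold did not pass (adjusted p = 0.118). Without MC903 library 1 it did (adjusted p = 0.0223), as it did with the block (0.0546). Nppb, the natriuretic peptide with which itch neurons signal to the spinal cord, was at 5.68, 6.80, 6.83 and 6.23 cpm with MC903 and 4.6, 3.56, 3.57 and 5.74 with ethanol, so that the groups overlapped. Cysltr2, a leukotriene receptor of the same neurons, was at 7.30 ± 0.423 and 5.76 ± 0.31 cpm (1.27-fold, adjusted p = 0.464). Mrgpra3, a pruritogen receptor of another class of itch neuron, was at 6.04 to 10.5 cpm with MC903 and 5.22 to 8.11 with ethanol (adjusted p = 0.826).

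Of 36 sensory ion channel genes, 2 rose (Trpv1 and Tmem100) and none fell (median 0.01). With the block 3 rose and none fell. Tmem100, an adaptor of the TRPA1 and TRPV1 channels, rose 1.56-fold, from 27.9 ± 3.59 to 43.5 ± 6.66 cpm (adjusted p = 0.0829), and kept its call only without MC903 library 4 or ethanol library 2. Scn10a was at 941 ± 56.1 and 826 ± 43.3 cpm and did not pass (adjusted p = 0.679), and P2rx3, an ATP-gated channel of nociceptors, did not either (adjusted p = 0.554). Receptors outside the lists that rose were S1pr3, a receptor for sphingosine 1-phosphate (1.58-fold, adjusted p = 0.0176), F2rl2, the protease-activated receptor PAR3 (1.32-fold, adjusted p = 0.0958, with no call in any of the 8 fits without 1 library), and Avpr1a, a vasopressin receptor. Avpr1a went from 1.73 ± 0.225 to 4.63 ± 0.445 cpm (2.67-fold, adjusted p = 0.0021).

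Protease inhibitors of the Serpina3 cluster on chromosome 12 were another group of calls. In a list of this cluster made after values had been seen, 5 of 10 tested genes rose and none fell, all 10 had a fold change above 0, and the median log2 fold change was 1.22. Serpina3n, an inhibitor of serine proteases, had 285, 216, 242 and 178 cpm with MC903 and 118.8, 104.8, 103.1 and 95.0 with ethanol (2.18-fold, log2 1.13 ± 0.13, adjusted p = 0.0035). Serpina3g had 83.8, 79.5, 84.6 and 64.8 cpm against 44.6, 40.5, 42.3 and 38.7 (1.88-fold, adjusted p = 0.00161). Serpina3i rose 3.09-fold, from 3.06 ± 0.342 to 9.44 ± 1.88 cpm (adjusted p = 0.00161). The groups did not overlap for any of these. The other 2 were Serpina3f and Serpina3h, which rose 2.01-fold (adjusted p = 0.0532) and 1.88-fold (adjusted p = 0.0201). Serpina3f kept its call in 3 of the 8 fits without 1 library (highest adjusted p 0.219), and Serpina3h lost it without ethanol library 3 (0.11). Serpina3e-ps, a pseudogene outside that list, was called higher as well and kept its call in 6 of the 8 fits. The genes of this cluster are near copies of each other, so that reads may be shared among them and the value of a single member is uncertain.

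Enzymes that act on the extracellular matrix were among the calls, whereas 1 of 15 genes of the fibroblast and matrix list rose. Loxl4, a lysyl oxidase that cross-links collagen and the gene with the smallest p, had 10.5, 11.9, 10.7 and 9.27 cpm with MC903 and 3.08, 3.30, 3.07 and 3.59 with ethanol, so that the groups were separated by more than their spread (3.24-fold, log2 1.70 ± 0.12, adjusted p = 0.000211). Lox, the founding member of that family, rose 2.44-fold, from 7.70 ± 1.46 to 18.8 ± 5.86 cpm (adjusted p = 0.0343), with its call lost without ethanol library 1 (adjusted p = 0.114), 3 (0.156) or 4 (0.132). Adamts8, a secreted metalloprotease, rose 2.23-fold (adjusted p = 0.0101), and Timp1, an inhibitor of metalloproteases, 2.20-fold (adjusted p = 0.0819), with its call kept in 2 of the 8 fits without 1 library (highest adjusted p 0.355). Tyrp1, an enzyme of melanin synthesis, rose 2.45-fold (adjusted p = 0.011) and Steap1, a membrane protein, 3.46-fold, from 1.06 ± 0.364 to 3.67 ± 0.507 cpm (adjusted p = 0.0062). Timeless, a protein of DNA replication forks that is also tied to the clock, rose 1.67-fold (adjusted p = 0.00503), whereas none of 18 clock genes passed (median -0.08). With the block 2 of the clock genes fell.

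**Figure D4:**
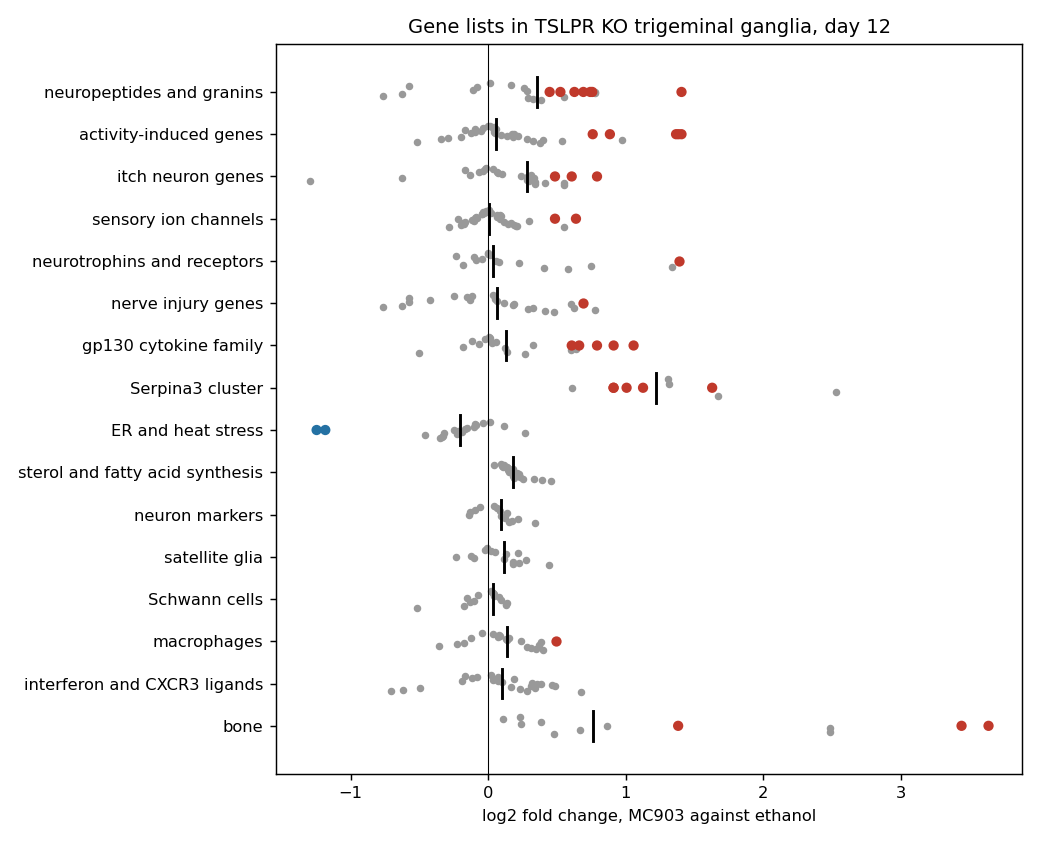
Log2 fold change of MC903 against ethanol in TSLPR KO day 12 ganglia (horizontal) for the members of 16 gene lists (vertical), 1 point per gene tested, with the median of each list as a bar. Red points are genes called higher, blue points genes called lower and grey points genes that did not pass; neuropeptides hold 7 calls and the heat stress list the 2 called lower.

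Most genes of immune cells did not pass. Cd3e, Cd3d and Cd3g, which define T cells, were at means of 0.283, 0.545 and 0.291 cpm over the 8 libraries. Tmem173, which encodes STING, the adaptor of the cytosolic DNA sensor cGAS, rose 2.77-fold, from 3.73 ± 0.165 to 10.3 ± 1.92 cpm (log2 1.47 ± 0.14, adjusted p = 0.00161). None of 25 interferon-induced genes and CXCR3 ligands passed (median 0.10).

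Lyz2, a lysozyme of myeloid cells, rose 1.41-fold, from 37.7 ± 3.77 to 53.1 ± 3.17 cpm (adjusted p = 0.0483), and kept its call in 2 of the 8 fits without 1 library (highest adjusted p 0.193, without ethanol library 3). It was the only one of 20 macrophage genes to pass, and the summed level of that list was 338 to 448 cpm with MC903 and 316 to 394 with ethanol. Of 14 neutrophil genes none passed, while 12 had a fold change above 0 (median 0.96), and 4 passed with the block (Lcn2, Ltf and Ngp among them). Their summed level was 19 to 31.3 cpm with MC903 and 11.4 to 23.9 with ethanol, and ethanol library 1 was at the level of the MC903 libraries. Lcn2, lipocalin 2, had 2.80, 1.48, 2.91 and 2.12 cpm with MC903 and 1.43, 0.474, 0.734 and 0.783 with ethanol (adjusted p = 0.16). In bulk tissue, more cells of a type and more RNA per cell cannot be told apart. Among 15 B cell genes none passed, and none of 12 genes of mast cells, basophils and eosinophils did.

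The 4 genes that fell were Hspa1a and Hspa1b, which encode the inducible heat shock protein HSP70, Prickle1, a planar cell polarity protein, and Kif21b, a kinesin. Hspa1a had 12.5, 10.5, 11.3 and 13.9 cpm with MC903 and 40.2, 22.9, 17.2 and 29 with ethanol, where the ethanol libraries were widely spread but all higher (log2 fold change -1.18 ± 0.21, adjusted p = 0.0621). Hspa1b had 16.4, 11.5, 12.4 and 17.8 cpm against 50.5, 30.3, 21 and 35.9 (log2 fold change -1.25 ± 0.23, adjusted p = 0.0695). The pair are near-identical neighbours that may share reads, and they count as 1 observation. Prickle1 went from 14.6 ± 0.949 to 10.3 ± 0.318 cpm (adjusted p = 0.0621, log2 fold change -0.50) and Kif21b from 25.9 ± 2.50 to 18.8 ± 0.748 cpm (adjusted p = 0.0779, log2 fold change -0.47). Hspa1a kept its call in 4 of the 8 fits without 1 library, Hspa1b in 2, and the other 2 genes in 1 each, and the highest adjusted p was 0.349, for Kif21b without ethanol library 3.

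Of 20 genes of heat shock and endoplasmic reticulum stress, these 2 fell and none rose, 17 had a fold change below 0 and the median was -0.20. With the block 6 fell and 1 rose. Hspa5, the chaperone BiP, was at 292, 279, 292 and 286 cpm with MC903 and 377, 386, 323 and 361 with ethanol, which did not overlap but did not pass (log2 fold change -0.33, adjusted p = 0.204), and Dnajb1, a partner of HSP70, did not pass either (log2 fold change -0.35, adjusted p = 0.196). Other genes with low p that did not pass were Dzip1, a protein of cilia (adjusted p = 0.155), Slit2, an axon guidance ligand (52.8 ± 2.91 against 64.8 ± 1.89 cpm, adjusted p = 0.181), C2cd4c (adjusted p = 0.196) and Ldb3 (adjusted p = 0.201). All 4, like Hspa5 and Dnajb1, were chosen among genes with every MC903 library below every ethanol library, so that separation is not a result. Of all genes tested, 2.36% were separated in this way.

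In a list of 12 bone genes made after their values were seen, 3 rose, of which 2 are near copies, none fell and all 12 had a fold change above 0 (median 0.77). Bglap and its near copy Bglap2, which encode osteocalcin of osteoblasts, rose 10.9-fold and 12.4-fold (adjusted p = 0.0209 and 0.0129) from 0.359 ± 0.224 and 0.290 ± 0.186 cpm. The call of Bglap was lost without ethanol library 3 (adjusted p = 0.12) or 4 (0.127), and that of Bglap2 was kept in all 8 fits. Col1a1, the collagen I chain of bone and fibroblasts, had 344, 418, 162 and 177 cpm with MC903 and 110, 114.9, 82.9 and 114.8 with ethanol (2.61-fold, log2 1.38 ± 0.27, adjusted p = 0.0819). MC903 libraries 1 and 2 were the highest, and without either of them Col1a1 did not pass (adjusted p = 0.23 and 0.159), nor without any of the 4 ethanol libraries (0.186 to 0.359). The summed level of the list was 280 to 613 cpm with MC903 and 192 to 251 with ethanol, while Ibsp, bone sialoprotein, was at 5.04 to 19.6 and 5.57 to 6.48 cpm, and overlapped. The part of attached bone in these differences was not tested.

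Marker genes of the cell types that make up the ganglion had few calls, which does not show that the cell types were equal between the groups. None of 15 neuron genes (median 0.10), 15 satellite glia genes (0.12), 16 Schwann cell genes (0.03) and 15 endothelial and mural genes (-0.05) passed, and Col1a1 was the only one of 15 fibroblast and matrix genes to pass (0.01). With the block 1 neuron gene rose and 1 Schwann cell gene fell, and of the fibroblast and matrix genes 2 rose and 1 fell. Of 13 vitamin D genes, none passed (median -0.02), and Cyp24a1, the target gene that MC903 induces most readily in skin, was at 0.0235 to 0.213 cpm with MC903 and 0.0787 to 0.425 with ethanol. Of 23 nerve injury genes, Gal alone rose (median 0.06), and 4 rose and 1 fell with the block. Atf3, the injury-induced transcription factor, was at 12.6 ± 3.29 and 11 ± 2.34 cpm and overlapped between the groups (adjusted p = 0.877).

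Of 24 genes of sterol and fatty acid synthesis none passed, whereas all 24 had a fold change above 0, with a median of 0.18. Scd1, the stearoyl-CoA desaturase, had 900, 927, 781 and 739 cpm with MC903 and 616, 675, 547 and 594 with ethanol, with no overlap (1.38-fold, adjusted p = 0.16), and with the block it passed (adjusted p = 0.0108) together with 2 others of the list. None of 18 glucocorticoid-responsive genes (median 0.16, 2 higher with the block), 20 cell cycle genes (0.18), 15 muscle genes (0.18), 9 pituitary genes (-0.12), 10 brain genes (0.16), 7 blood genes (0.29) and 10 skin genes (0.27) passed. The pituitary sum ran from 36.6 to 435 cpm with MC903 and from 57.5 to 305 with ethanol, and the muscle sum from 55.8 to 82.7 and 66.9 to 81.5.

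To see whether the same genes differed when the TSLP receptor is present, the 75 higher genes were followed in wild-type ganglia of day 8, in 17 libraries of 3 series (2 MC903 and 2 ethanol, 3 and 3, and 4 and 3 of PBS-injected mice) fitted with a term for series. In that fit 612 of 26855 genes passed (2.28%), 402 higher (1.5%) and 210 lower (0.782%). These libraries have none in common with the knockout. There, 71 of the 75 had a fold change in the same direction (50.9% of all genes were above 0), with a median log2 fold change of 0.69. Of the 75, 61 were called higher in wild-type (81.3% of the 75 and 15.2% of the 402), and 68 of the 75 were higher at an unadjusted p under 0.05, against 7.34% of all genes. The 4 that lay below 0 in wild-type were Bglap, Bglap2, Col1a1 and Lyz2, and of these Col1a1 was called lower. Without the library low in Crlf2, 970 genes passed, and 71 of the 75 had the same direction and 66 were called higher. In the fit with all 17 libraries, the 13 of the 75 not called in either direction included Tac1, Gal, Cartpt and Serpina3f. The number of the 75 in the same direction was 73 of 75 in the first series, 67 of 73 in the second (69 of 73 without the library low in Crlf2) and 72 of 75 in the PBS-injected series, and 29, 1, 4 and 65 of them were called.

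**Figure D5:**
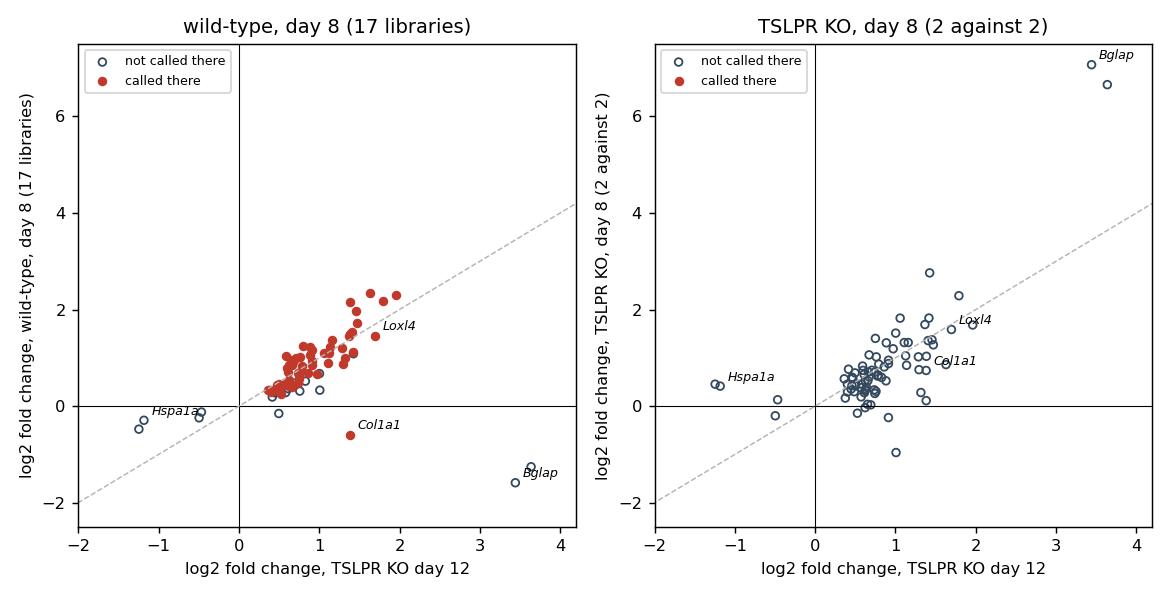
Log2 fold change of the 79 called genes in TSLPR KO ganglia of day 12 (horizontal) against that in wild-type ganglia of day 8 (left, vertical) and TSLPR KO ganglia of day 8 (right, vertical), with the line of equal values dashed. On the left 61 of the 75 higher genes are called higher in wild-type and Col1a1 is called lower, and on the right none is called and 71 of the 75 lie above 0.

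The difference of the MC903 effect between knockout of day 12 and wild-type of day 8 was tested in 1 fit of 25 libraries. A single gene of 28328 passed, Col1a1 (0.00353%), with a log2 fold change of 1.38 in the knockout and -0.59 in wild-type (difference 1.97 ± 0.30 SE, adjusted p = 0.0152), and 835 genes had an unadjusted p under 0.05. DESeq2 also called 1 gene. Without the library low in Crlf2, 3 passed, Col1a1, Bglap and Bglap2. The number ranged from 0 to 8 when 1 library was left out, and was 0 without the PBS-injected series. Of the 79 genes, 69 had a difference within 0.5 on the log2 scale, and the median absolute difference was 0.23. The 79 were picked on knockout values that enter this difference, which biases it towards a larger effect in the knockout. Vgf rose by 1.41 in the knockout and 1.54 in wild-type (difference -0.14 ± 0.18), Nptx2 by 1.37 and 1.44 (-0.08 ± 0.20), Bdnf by 1.38 and 1.49 (-0.11 ± 0.21) and Loxl4 by 1.70 and 1.46 (0.23 ± 0.26). None of these differences had an unadjusted p under 0.05. A missed threshold does not show that the effects were equal.

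Il31ra was among the 13 of the 79 genes with a difference at an unadjusted p under 0.05, which lay below 0 for 6 and above 0 for 7. Over all genes 835 of 28328 had such a p, and the choice of the 79 on knockout values limits this comparison. Its log2 fold change was 0.79 in the knockout and 1.25 in wild-type (difference -0.46 ± 0.12, unadjusted p = 0.000422, adjusted p = 1). Serpina3i had 1.63 and 2.33 (difference -0.71 ± 0.28, unadjusted p = 0.0176). Nppb, not called in the knockout (0.55), was called in wild-type with 1.88 ± 0.26, and the difference of -1.34 ± 0.38 had an unadjusted p of 0.0015 and an adjusted p of 1. Cysltr2 likewise had 0.34 and 0.88 (difference -0.55 ± 0.27, unadjusted p = 0.0544). Scg2 and S1pr3 were larger in the knockout, by 0.27 ± 0.10 and 0.26 ± 0.10. Of these differences none passed over all genes. Hspa1a, Hspa1b and Kif21b, also among the 13, fell with MC903, so for them a difference below 0 is a larger fall in the knockout.

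TSLPR KO ganglia of day 8, with 2 MC903 and 2 ethanol libraries, allowed only a check of direction. No gene of 23402 passed there, 1886 had an unadjusted p under 0.05, and DESeq2 called 185. Of the 75 genes, 71 had the same direction (50.8% of all genes were above 0) with a median of 0.69, and 41 of the 75 were higher at an unadjusted p under 0.05 (54.7%, against 4.55% of all genes). The 4 with the opposite sign were Rab27a, Scg2, Serpina3f and Serpina3h. Il31ra had 0.87, Vgf 1.36, Nptx2 1.69 and Calca 0.26 there. Of the 4 genes lower at day 12, Prickle1 was below 0 at day 8 in the knockout, while Hspa1a (0.41), Hspa1b (0.45) and Kif21b (0.13) were above it, and all 4 were below 0 in wild-type of day 8, where none was called. One of the day 8 MC903 libraries stood apart, with 19% of its reads on no gene and Krt14 at 41.6 cpm.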

How the data were processed

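The authors made poly(A) RNA libraries, mapped reads to mm10 with TopHat and Bowtie2 and assigned them to genes with HTSeq, and deposited raw counts per gene, one list of 46078 genes per library. Whether counting used strand is not given in the sources used here. The 5 tally lines of each list were left out. Symbols and coordinates came from GENCODE M21 (45229 genes matched, 849 did not).

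Genes with at least 10 counts over the libraries fitted were tested with edgeR 4.0.16 in R 4.3.3 (TMM, quasi-likelihood test, Benjamini-Hochberg adjustment), calling an adjusted p under 0.1, the study's threshold for this tissue. Log2 fold changes carry SEs of the fit. DESeq2 1.42.0 and limma 3.58.1 were alternatives. The procedure was tested on simulated data. Same-numbered libraries of the labels deviated together over 16654 genes (correlations 0.208, 0.606, 0.251 and 0.285 for numbers 1 to 4, while MC903 4 and ethanol 1 had 0.331). A fit with the number as a block is therefore given beside the main fit for some lists and genes, but not for all. Intervals and limits from counts cover counting error only.

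Genes named were, by rule, Crlf2, up to 15 calls per direction with the smallest p, and the study's own genes for the tissue. In a direction of few calls, genes of low p that did not pass were added up to 10. Those added had a mean of at least 1 cpm and groups that do not overlap. From each list came up to 4 members of smallest p and 4 of highest level. The members and lists were chosen with earlier results of these data known. 1 gene that the rule covers is not reported here, although it remains in the tests and counts.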

Additional observations from a re-analysis of the deposited data

Results flagged for a closer look

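In 258 checks of a group of 4 TSLPR KO day 12 libraries, the highest or lowest library lay far from the other 3 in 13, a number that chance gives at about 1 group in 20. Ethanol library 1 accounted for 6 of these as the highest: Adamts8 (6.40 cpm), Adcyap1 (59.3 cpm), Mrgprx3-ps (7.73 cpm) and the neutrophil genes S100a9 (3.98 cpm), Ltf (1.85 cpm) and Ngp (3.48 cpm). MC903 library 1 was the lowest of its group for Calcb (47.5 cpm) and for the share of reads on no gene (6.15%). MC903 library 3 was the lowest for Lpcat3 (22.7 cpm) and the highest for S100a9 (6.02 cpm). Ethanol library 3 was the lowest for Nt5e (32.3 cpm) and Col1a1 (82.9 cpm), and ethanol library 4 for Tmem173 (3.48 cpm).

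The MC903 effect on Col1a1 differed between TSLPR KO of day 12 and wild-type of day 8 by 1.97 on the log2 scale (edgeR, adjusted p = 0.0152). Genotype, day and library series cannot be told apart in this difference, and in the knockout the near copies Bglap and Bglap2 were called higher as well.

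Of the libraries labelled wild-type day 12 skin, which no comparison used, 6 held more than 100 cpm of the neuron gene Snap25.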

How the results depend on the processing

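All 79 genes called in TSLPR KO ganglia of day 12 kept their direction under every alternative. Their groups do not overlap, so this was fixed in advance wherever only these libraries were fitted. The count was 46 at an adjusted p of 0.05, 260 with DESeq2, 356 with the replicate block that pairs same-numbered libraries, and 0 when all day 12 groups labelled trigeminal ganglion, skin-like libraries included, entered 1 fit (484 at an unadjusted p under 0.05). It ranged from 31 to 95 when 1 library was left out. RLE scaling, filterByExpr, no filter, limma-voom, and days 8 and 12 in 1 fit without the 2 libraries that stand apart gave 79, 80, 100, 73 and 88. Days 8 and 12 in 1 fit with a day term gave 108 higher and 4 lower, and 58 of the 79 kept their call there. The comparisons in wild-type of day 8 and of the difference were chosen after seeing the data. So was the fit of days 8 and 12 without 2 libraries. The genotype fits without 2 wild-type libraries, or without the library low in Crlf2, were also chosen then.

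In TSLPR KO of day 8, where the main count was 0, DESeq2 gave 185, no filter 1063 and the block 480, and leaving out 1 library 0 to 832. Between genotypes in ethanol, DESeq2 gave 2942, the block 3, the day 8 libraries of 1 series 1, the same without the library low in Crlf2 1, the fit without 2 wild-type libraries 57, and leaving out 1 library 0 to 12. In wild-type of day 8 the count of 612 became 360 at 0.05, 1427 with DESeq2, 983 with the block, 205, 1245 and 41 without the first, second or PBS-injected series, and 346 to 970 without 1 library. The difference of effects gave 4 without a filter, 2 with the block, 3 without the first series, 0 without the PBS-injected series and 0 to 8 without 1 library.

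Signs turned for Atf3 (-0.084 in the fit of days 8 and 12 without 2 libraries), Jun (-0.0075 without MC903 library 1, in a range of up to 0.11 over the fits without 1 library), Col1a1 in TSLPR KO of day 8 (-0.30 without MC903 library 1, in a range of up to 1.34) and Bglap in wild-type of day 8 (0.88 without the PBS-injected series); none of these was past the threshold either way, and the cause was not tested. MC903 against ethanol in wild-type of day 12 and its difference from the knockout were planned and not run, because 6 of those 9 libraries lack ganglion genes.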
